A study of Mus musculus with 24 samples.

Results

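Cpne5, Pilra, Rassf5 and Lepr are 4 genes of sorted mouse alveolar macrophages, out of 43430 gene IDs in the deposited count table. They were listed because their counts were lower in Siglec F-low than in Siglec F-high cells after asbestos, so the sort comparison chose them and is given for them as a description with no test. All 4 were among the 13467 genes that passed the filter on low counts. The cells came from C57BL/6J mice that carried no transgene or deletion according to the labels, and poly(A) RNA was sequenced in 24 libraries, 4 in each of 6 groups. The young mice were 8 to 12 weeks old and the old mice more than 18 months. At each age there were naive cells sorted as Siglec F-high, cells sorted as Siglec F-high after asbestos, and cells sorted as Siglec F-low after asbestos. The asbestos groups were taken 28 days after asbestos, an inhaled mineral fibre that scars the lung. No naive group was sorted as Siglec F-low, and the labels did not say which of the sorts held resident and which monocyte-derived cells.

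Alveolar macrophages clear particles and surfactant from the air spaces, and in the mouse they carry Siglec F, a lectin that binds sialic acid. Cells newly formed from blood monocytes during lung injury carry less of it, which is why Siglec F is used as a gate. The 4 genes belong to no common pathway. Pilra encodes an inhibitory receptor of myeloid cells and Lepr the receptor for leptin. Rassf5 encodes an adaptor that carries signals from active Rap1 and Ras to integrins and to the kinase Mst1, and Cpne5 encodes a copine, a protein that binds membrane phospholipids when calcium rises.

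Of the libraries, 22 held 13423080 to 18124526 counts. The 2 others stood apart, and each was replicate 3 of its group, the young or the old Siglec F-high cells after asbestos. The young one held 11889517 counts on 12528 genes, against 17069 to 18820 genes in the 22. The old one held 3894699 counts, of which 35.6% lay on Gm42418, a gene model that overlaps ribosomal RNA, against 0.136 to 0.357% in the 22. Results are therefore from a fit with 24 libraries unless 22 are named, and values from a fit with 22 are given beside them for the comparisons in which the 4 genes changed call, direction or order. Siglecf itself, the gene of the sort marker, had 312.5 to 476 CPM in young and 371.6 to 472 CPM in old asbestos Siglec F-high libraries, against 236 to 294 CPM and 148 to 221 CPM in the Siglec F-low ones. CPM are counts relative to the size of the library, scaled between libraries by the trimmed mean of M values (TMM). The sorts did not overlap in Siglecf RNA, and the lowest Siglec F-high value at each age came from the library that stood apart. The counts measure RNA and not the Siglec F by which the cells were sorted.

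Markers of other cells moved with the sort. Of 12 genes of monocytes and macrophages formed from them, 6 were called higher in young and 7 in old Siglec F-low cells, at an edgeR adjusted p under 0.05. The summed level of these 12 was 1680 to 1940 CPM in young and 2310 to 2980 CPM in old Siglec F-low libraries. In young and old asbestos Siglec F-high libraries the sum was 633 to 1010 CPM and 623 to 1300 CPM, and in naive ones 648 to 991 CPM. Of 14 genes of resident alveolar macrophages, 5 were called lower in the young and 4 in the old Siglec F-low cells, and 1, Chil3, was called higher at both ages. With 22 libraries 7 of the 12 were called higher at each age and 1, Fcgr4, lower in old cells, and of the 14 resident genes 5 were lower and 3 higher in young and 6 lower and 2 higher in old cells. None of the genes on either list was at 0 in any group. Of 8 B cell genes and of 7 tested T and NK cell genes none was called with 24 libraries, and of 7 tested epithelial genes only Epcam, lower at both ages. With 22 libraries Cd2 of the T and NK cell genes and Scgb1a1 of the epithelial genes were also called lower, both in old Siglec F-low cells. The epithelial sum was 171 to 390 CPM over all libraries. Of 6 tested neutrophil genes Csf3r was called lower in young Siglec F-low cells. With 22 libraries Mmp8, S100a8 and S100a9 were called higher there too, and Retnlg was called higher in old ones. Ly6g, the defining neutrophil marker, was at 0 in all groups but old Siglec F-low cells, and the neutrophil sum was 46.6 to 113 CPM over all libraries. The part of these markers in the differences of the 4 genes was not tested. In bulk RNA, fewer cells of a type and less RNA per cell cannot be told apart.

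Each of the 4 genes had its lowest group means in the Siglec F-low sorts. The genes differed in what the other groups looked like. Pilra and Cpne5 had higher means in naive cells of both ages than in any asbestos group. Rassf5 was highest in young naive cells and fell with age across the asbestos sorts. Lepr was about as high in asbestos Siglec F-high cells as in naive cells of the same age once the old library that stood apart was left out.

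**Figure D1:**
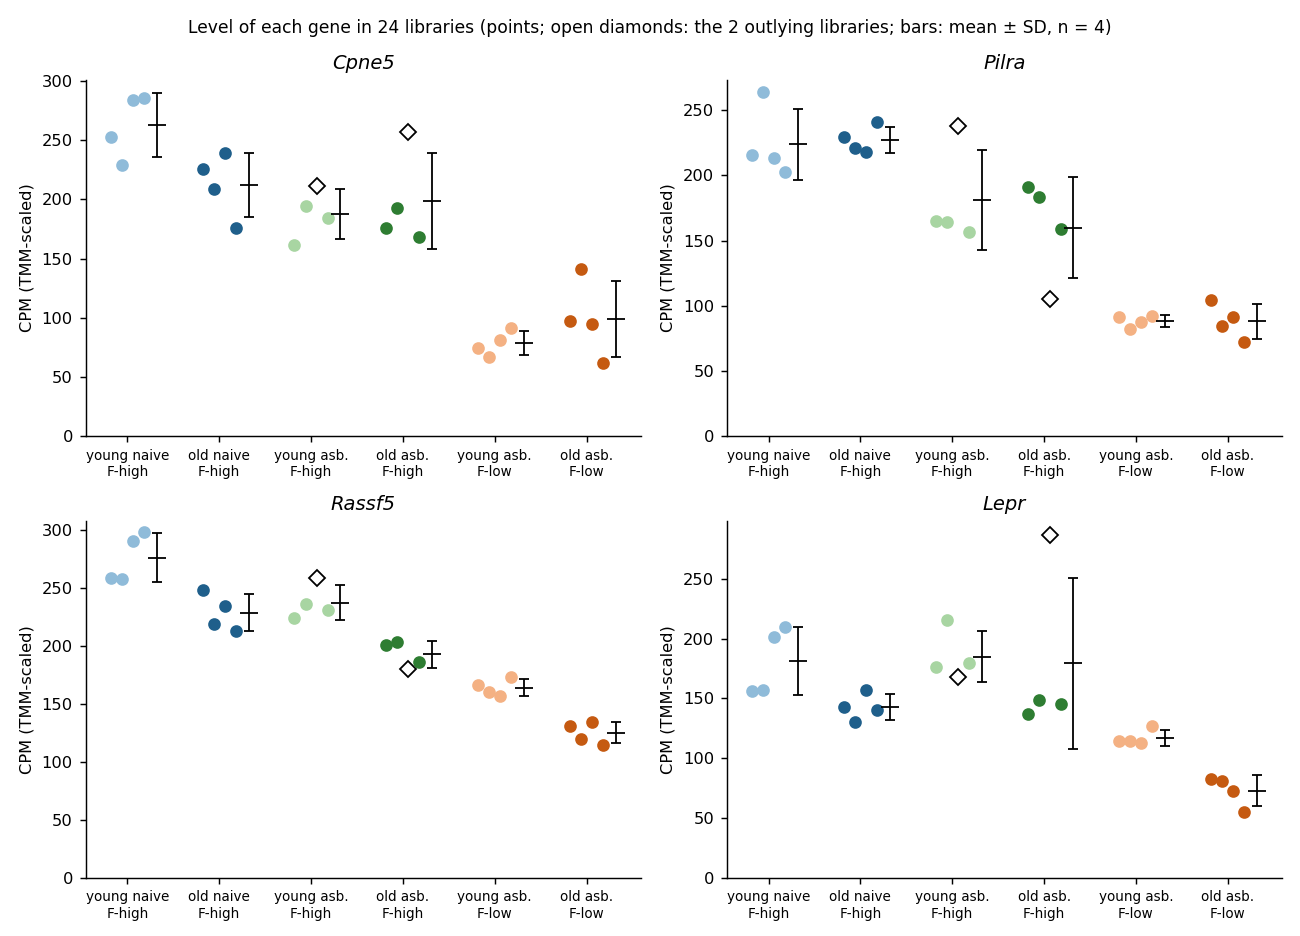
Level of Cpne5, Pilra, Rassf5 and Lepr (vertical axis, CPM from 0) in the 6 groups (horizontal axis), with 1 point per library, open diamonds for the 2 libraries that stood apart, and bars for mean ± SD of 4 libraries. In all 4 panels the Siglec F-low points lie below the asbestos Siglec F-high points of the same age, and the open diamond of Lepr in old asbestos Siglec F-high cells lies at 287 CPM, above all other libraries of that gene.

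Pilra (ENSMUSG00000046245) lies at chr5:137821952-137836281 on the minus strand of GRCm38. Its protein, PILR alpha, binds sialylated partner proteins and recruits the phosphatases SHP-1 and SHP-2 through an inhibitory motif in its tail. It lies beside the near copies Pilrb1 and Pilrb2, which encode activating receptors that pair with DAP12. The stretch just before the start of Pilra was compared with the matching stretches of the copies, because it shows how alike they are. In Pilrb1 and Pilrb2 the match lies farther from the start, at -174 to -55. The sequences are from RefSeq on GRCm38.p6, read on the minus strand from chr5:137836279-137836398 (Pilra), chr5:137858104-137858223 (Pilrb1) and chr5:137871813-137871932 (Pilrb2). Capitals in the Pilra line mark GGGCGG, a GC box, and capitals in the other lines mark bases that differ from Pilra.
Pilra: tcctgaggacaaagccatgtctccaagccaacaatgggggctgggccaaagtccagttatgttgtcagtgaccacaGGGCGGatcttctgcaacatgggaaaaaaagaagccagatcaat
Pilrb1: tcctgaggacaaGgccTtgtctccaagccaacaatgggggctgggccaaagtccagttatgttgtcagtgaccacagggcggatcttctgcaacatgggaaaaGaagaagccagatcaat
Pilrb2: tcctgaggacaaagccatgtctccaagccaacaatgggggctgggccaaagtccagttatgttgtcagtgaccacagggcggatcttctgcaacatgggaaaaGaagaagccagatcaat
Over the 196 bases that the windows share, Pilra was identical to Pilrb2 at 195 (99.5%) and to Pilrb1 at 192 (98.0%). The transcripts were less alike. Of 3183 different 50-base words in Pilra transcripts, 140 (4.4%) also occurred in Pilrb1 and 122 (3.83%) in Pilrb2. How reads that match several genes were counted is not given in the sources used here, so part of each gene's counts is uncertain. That part may be larger for the copies, because 30.05% of Pilrb1 words and 29.18% of Pilrb2 words occurred in some other gene. A further 468 of the 3090 exon bases of Pilra (15.15%) overlap exons of Zcwpw1 on the opposite strand, and whether the counting used strand is not given either.

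In young naive cells the 4 libraries had 216, 264, 213 and 202 CPM of Pilra, and in old naive cells 229, 221, 218 and 240.4 CPM. In asbestos Siglec F-high cells the values were 165, 164, 238 and 156 CPM in young and 191, 184, 105.4 and 159 CPM in old mice. Siglec F-low cells had 91.2, 82.6, 87.9 and 92.4 CPM in young and 104.6, 84.4, 91.6 and 72.1 CPM in old mice. The naive libraries of both ages overlapped, and no Siglec F-low library reached a Siglec F-high one. The margin was narrow only in the old mice, where the library that stood apart, at 105.4 CPM from 129 counts, was the lowest of its group. In the young mice the library that stood apart was the highest of its group instead. By group mean the order was old naive (227 ± 10.01, SD, n = 4), young naive (224 ± 27.3), young Siglec F-high after asbestos (181 ± 38.3), the same in old mice (159.8 ± 38.8), young Siglec F-low (88.5 ± 4.41) and old Siglec F-low (88.2 ± 13.6). Neighbours in that order overlapped except at the step from Siglec F-high to Siglec F-low. On the log2 scale Siglec F-low cells were at -1.03 ± 0.16 (SE) against Siglec F-high cells in young mice and at -0.87 ± 0.16 in old mice. With 22 libraries the order of the ages turned, to -0.87 ± 0.10 in young and -1.02 ± 0.10 in old mice, as did that of the Siglec F-high means after asbestos, at 162 ± 4.53 CPM in young and 178 ± 16.8 CPM in old mice (SD, n = 3).

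Pilra showed no called difference with age. Old against young naive cells differed by 0.02 ± 0.16 on the log2 scale (edgeR quasi-likelihood test, adjusted p = 1). Across both asbestos sorts, old cells were at -0.09 ± 0.11 against young ones (edgeR adjusted p = 0.674), and at 0.07 ± 0.07 with 22 libraries (edgeR adjusted p = 0.548). The direction of this small difference thus turned with the libraries that stood apart.

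The partners of Pilra in the list for PILR receptors and inhibitory signalling went different ways in the sort comparison. Of 17 genes on the list 14 were tested. In young cells 2 were called higher and 1 lower, and in old cells 1 higher and 1 lower, with medians of 0.16 and 0.05 on the log2 scale. With 22 libraries 4 were called higher and 1 lower in young cells, and 3 higher and 3 lower in old cells. Over all genes tested 4.99% were called in the young comparison (3.41% higher) and 4.3% in the old one (2.64% higher), or 12% and 11.6% with 22 libraries, and the medians were 0.0041 and -0.0039. Pianp, which encodes a neuronal protein that PILR alpha binds, rose at both ages, by 2.77 ± 0.46 in young (edgeR adjusted p = 0.000608) and by 1.98 ± 0.46 in old cells (edgeR adjusted p = 0.0135). Its level was low throughout, at 1.53 ± 1.03 and 3.11 ± 1.03 CPM in young and old asbestos Siglec F-high cells and 10.9 ± 1.67 and 13.4 ± 3.69 CPM in Siglec F-low cells (SD, n = 4). Npdc1, another ligand, was called higher in young cells (log2 difference 2.30 ± 0.47, edgeR adjusted p = 0.00414) and had a log2 difference of 1.35 ± 0.43 in old cells (edgeR adjusted p = 0.0851). With 22 libraries the old value was called too, at 1.31 ± 0.33 (edgeR adjusted p = 0.0108).

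The near copy Pilrb2 fell with Pilra, by 1.03 on the log2 scale in young (SE 0.25, edgeR adjusted p = 0.0149) and by 0.97 in old cells (SE 0.26, edgeR adjusted p = 0.0314). Pilrb1 was at -0.73 ± 0.27 in young (edgeR adjusted p = 0.118) and -0.90 ± 0.28 in old cells (edgeR adjusted p = 0.0787), and the old value was called with 22 libraries (-0.92, edgeR adjusted p = 0.015). Both copies were much lower than Pilra per length. Young naive cells had 72.4 ± 8.82 CPM per kb of exon for Pilra, 5.83 ± 1.62 for Pilrb2 and 2.35 ± 0.66 for Pilrb1 (SD, n = 4). Because the transcripts share words, the falls of the copies and of Pilra were not measured apart from each other.

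Lepr (ENSMUSG00000057722) lies at chr4:101717404-101815352 on the plus strand of GRCm38. The leptin receptor is a cytokine receptor that signals through Jak2 and Stat3 and induces Socs3, which in turn dampens it. Its 7049 exon bases overlap no exon of another gene. The neighbouring gene Leprot encodes a small membrane protein that limits the surface level of the receptor, lies upstream at chr4:101647718-101659364, and shares no exon base with Lepr. RefSeq gives more than 1 start for Lepr, and the last 120 bases before the first are shown, on the plus strand at chr4:101717287-101717406 of GRCm38.p6, because the window before it, unlike that before the other start, holds none of the motifs searched in the promoters.
Lepr: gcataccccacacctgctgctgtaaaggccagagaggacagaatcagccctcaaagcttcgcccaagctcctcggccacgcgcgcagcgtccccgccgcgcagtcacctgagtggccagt

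Lepr had 156, 157, 201 and 210.0 CPM in young naive libraries and 142, 130.5, 157 and 140.0 CPM in old naive ones. Asbestos Siglec F-high cells had 177, 216, 168 and 179.6 CPM in young and 137, 148, 287 and 145 CPM in old mice. In Siglec F-low cells the values were 114, 114, 113 and 127 CPM in young and 83.0, 81.1, 72.6 and 54.9 CPM in old mice. The 287 CPM were measured in the old library that stood apart, from 351 counts, and without it the group lay at 143 ± 6.11 CPM (SD, n = 3) in place of 179.2 ± 71.8 CPM. The Siglec F-low libraries lay below all libraries of the 4 other groups. Old Siglec F-low libraries also lay below all young Siglec F-low ones. The order of means was young asbestos Siglec F-high (185 ± 21.1), young naive (181 ± 28.5), old asbestos Siglec F-high, old naive (142 ± 10.9), young Siglec F-low (117 ± 6.67) and old Siglec F-low (72.9 ± 12.8). The first 4 overlapped with their neighbours, but old asbestos Siglec F-high cells reached young naive ones only through the library at 287 CPM.

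The sort difference of Lepr was -0.66 ± 0.18 on the log2 scale in young mice and -1.28 ± 0.19 in old mice. It was -0.71 and -0.98 with 22 libraries, so the library at 287 CPM set part of the larger value in old mice. Lepr ranked lower than the other members in the young comparison, at place 163 by p among genes lower in Siglec F-low cells, and at place 3 in the old one. Pilra stood at places 2 and 19, Rassf5 at 5 and 2, and Cpne5 at 1 and 21. With 22 libraries the places in young and old mice were 37 and 12 for Lepr, 2 and 3 for Pilra, 16 and 7 for Rassf5, and 12 and 134 for Cpne5. In the young comparison 1.58% and in the old comparison 1.66% of all genes were called lower, but nothing follows from this for genes that the comparison chose.

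Lepr was compared between ages in asbestos and in naive cells. The asbestos comparison takes the mean of the sorts and not their difference, but from the libraries that chose the genes, and only the naive comparison uses other libraries. Across both asbestos sorts Lepr was at -0.37 ± 0.13 in old against young cells, which was not called with 24 libraries (edgeR adjusted p = 0.0862). With 22 libraries it was called lower, at -0.54 ± 0.09 (edgeR adjusted p = 0.00011), and 16.1% of all genes were called there. Leaving out only the old Siglec F-high library at 287 CPM also gave a call (edgeR adjusted p = 0.000945), as did leaving out only the young one that stood apart (edgeR adjusted p = 0.0324). In naive cells the difference was -0.35 ± 0.18 (edgeR adjusted p = 0.689) and, with 22 libraries, -0.34 ± 0.11 (edgeR adjusted p = 0.059). The naive groups overlapped only between 156.2 and 156.8 CPM.

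Leprot did not follow Lepr. Its group means lay between 178 and 209 CPM, and its sort difference was 0.03 ± 0.11 in young (edgeR adjusted p = 0.897) and -0.03 ± 0.11 in old cells (edgeR adjusted p = 0.961). With age it went the other way from Lepr with 22 libraries, where Leprot was called higher in old naive cells (0.22 ± 0.06, edgeR adjusted p = 0.0135) and in old asbestos cells (0.21 ± 0.04, edgeR adjusted p = 0.00142). With 24 libraries neither was called, at 0.22 ± 0.11 and 0.13 ± 0.08 (edgeR adjusted p = 0.604 and 0.305). Per kb of exon, Leprot had 93.9 ± 5.47 CPM and Lepr 25.7 ± 4.04 CPM in young naive cells (SD, n = 4).

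Socs3, the feedback inhibitor that leptin and related cytokines induce, rose where Lepr was low. Its means were 30.7 ± 3.74 and 34.5 ± 1.82 CPM in young and old asbestos Siglec F-high cells and 65.8 ± 18.4 and 112 ± 20.4 CPM in Siglec F-low cells (SD, n = 4). The log2 difference was 1.10 ± 0.20 in young (edgeR adjusted p = 0.00155) and 1.69 ± 0.21 in old cells (edgeR adjusted p = 3.03e-05). Of 19 genes in the list for the leptin receptor and related receptors 16 were tested, and Socs3 was the only one called higher at either age with 24 libraries. The only one called lower in that fit was Csf3r, the receptor for the growth factor of granulocytes, in young cells (log2 difference -0.81 ± 0.21, edgeR adjusted p = 0.022). Jak2 and Stat3, which carry the signal of the receptor, were called in neither fit, and the list medians were 0.09 and 0.0034. With 22 libraries 2 genes were called higher and 2 lower in young cells, and 3 higher and 0 lower in old cells.

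**Figure D2:**
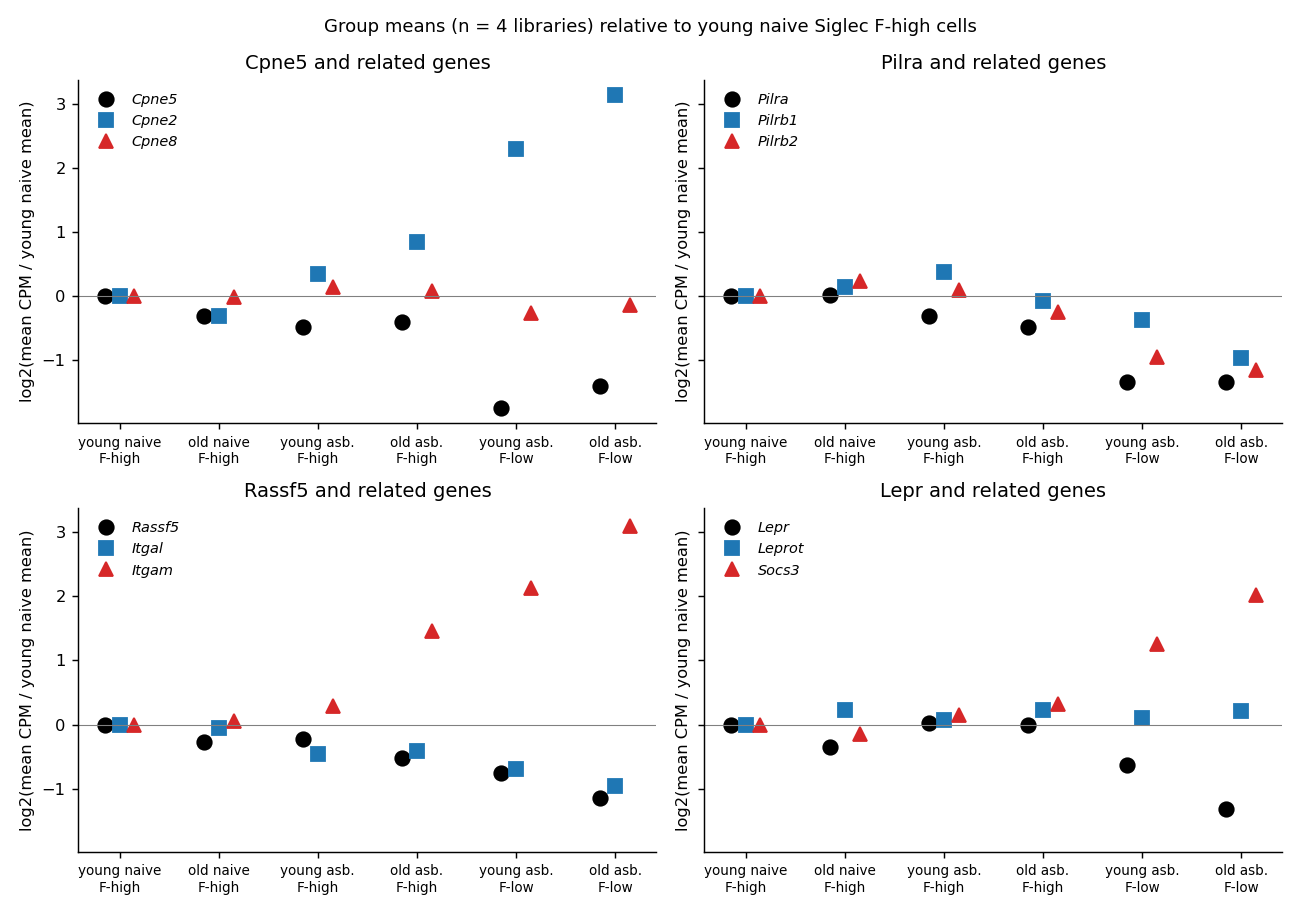
Group means of each member and of 2 related genes as log2 of the ratio to the young naive mean (vertical axis) in the 6 groups (horizontal axis), with black circles for the member and coloured symbols for Cpne2 and Cpne8, Pilrb1 and Pilrb2, Itgal and Itgam, and Leprot and Socs3. Pilrb1, Pilrb2, Cpne8 and Itgal lie lowest in Siglec F-low cells as the members do, Cpne8 by a small step. Leprot stays near 0, and Cpne2, Itgam and Socs3 lie highest in old Siglec F-low cells.

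Rassf5 (ENSMUSG00000026430) lies at chr1:131176410-131245258 on the minus strand of GRCm38. Of its 3997 exon bases 78 overlap exons of Eif2d on the opposite strand, and none of its 50-base words occurred in another gene. One form of the protein, RAPL, binds active Rap1 and brings the integrin LFA-1, made of the products of Itgal and Itgb2, into its adhesive state together with the kinase Mst1, the product of Stk4. The RefSeq start lies within the gene span, and the 120 bases before it are at chr1:131200186-131200305 of GRCm38.p6 on the minus strand. The sequence is shown because Rassf5 was the only member to hold AGGAAGT, the core bound by ETS factors such as PU.1, and capitals mark AGGAAGT and GGGCGG.
Rassf5: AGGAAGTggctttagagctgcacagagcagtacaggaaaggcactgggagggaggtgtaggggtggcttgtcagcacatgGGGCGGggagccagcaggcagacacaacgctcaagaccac
Both strands of the 250 bases before each start were searched for AGGAAGT, for TGANTCA, the site of AP-1, and for GGGCGG. Over 32851 such windows, AGGAAGT occurred in 7.69%, TGANTCA in 6.75% and GGGCGG in 32.7%. No window of the 4 genes held TGANTCA. Pilrb1 and Pilrb2, the copies of Pilra, held AGGAAGT at -52 to -46, past the stretch that matches the Pilra window. These matches describe letters and were not tested as binding sites.

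The libraries of a group lay close together for Rassf5, with no SD above 21.2 CPM. Its values were 259, 258, 290.3 and 299 CPM in young naive libraries and 248.5, 219, 234 and 213 CPM in old naive ones. In asbestos Siglec F-high cells they were 224, 236, 258 and 231 CPM in young and 201, 204, 180.5 and 186 CPM in old mice. Siglec F-low cells had 166, 161, 156 and 173 CPM in young and 131, 120.1, 134 and 115 CPM in old mice. Old libraries lay below young ones without overlap in naive cells, in asbestos Siglec F-high cells and in Siglec F-low cells. Within each age, Siglec F-low libraries lay below Siglec F-high ones without overlap. The order of means was young naive (276 ± 21.2, SD, n = 4), young asbestos Siglec F-high (237 ± 14.9), old naive (229 ± 15.96), old asbestos Siglec F-high (193 ± 11.4), young Siglec F-low (164 ± 7.4) and old Siglec F-low (125 ± 9.03). The first 3 overlapped with their neighbours, and from old naive down no neighbours overlapped. Young asbestos Siglec F-high cells reached young naive ones only through the library at 258 CPM, which stood apart.

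Rassf5 was lower in old asbestos cells, and its naive value, the only one from libraries that did not choose the gene, was not called with 24 libraries. Across both asbestos sorts Rassf5 fell by 0.35 on the log2 scale in old against young cells (SE 0.06, edgeR adjusted p = 0.00104), and 7.23% of all genes were called there, 2.87% as lower. With 22 libraries the value was -0.30 ± 0.05 (edgeR adjusted p = 0.00025). In naive cells, where 2.03% of genes were called and 0.349% as lower, the value was -0.27 ± 0.09 and was not called (edgeR adjusted p = 0.155). It was called with 22 libraries (-0.27 ± 0.07, edgeR adjusted p = 0.013), where 8.03% of genes were, and when only the young asbestos library that stood apart was left out (edgeR adjusted p = 0.0285). Rassf5 was the only one of the 4 genes called with age in the asbestos cells by the fit of 24 libraries, and none was called in naive cells. Labels gave no animals behind the libraries, so these p-values measure the spread between these samples, which may be technical.

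Marker genes moved with age too. On the list of genes of monocyte-derived cells, Ly6c2, Ccr2 and Mmp12 were among those called higher in old asbestos cells, Apoe was called lower, and Mmp12 was among those called higher in old naive cells. None of the 14 resident genes was called with age in naive cells with 24 libraries, and 1, Plet1, was lower in old asbestos cells. With 22 libraries Pparg was called higher in old naive cells, and 6 resident genes were called in asbestos cells, Itgax and Chil3 higher and Pparg, Mrc1, Plet1 and Siglecf lower in old mice. The part of these markers in the age differences of Rassf5 and Lepr was not tested.

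Of 24 genes in the list for the RASSF family and the RAPL, Rap1 and Mst kinases, 22 were tested, and Rassf5 is not among them. In the sort comparison 2 were called higher in young and 1 in old Siglec F-low cells, and 0 and 1 were called lower, with medians of -0.06 and -0.17. With 22 libraries 3 were called higher and 5 lower at each age. Itgal, the LFA-1 chain, fell by 0.55 on the log2 scale in old cells (SE 0.14, edgeR adjusted p = 0.0233) and was at -0.23 ± 0.14 in young cells (edgeR adjusted p = 0.355), a value that was called with 22 libraries (-0.40 ± 0.07, edgeR adjusted p = 0.00078). Its libraries ranged from 645.6 to 759.5 CPM in naive cells and from 347 to 476 CPM in Siglec F-low cells. Itgam, the alpha chain of the related integrin Mac-1, rose instead, by 1.85 ± 0.19 in young (edgeR adjusted p = 1.66e-06) and by 1.64 ± 0.19 in old cells (edgeR adjusted p = 1.29e-05). Itgam stood at 11.4 ± 2.56 and 25.8 ± 4.09 CPM in young and old asbestos Siglec F-high cells and at 41.1 ± 6.91 and 80.0 ± 20.2 CPM in Siglec F-low cells (SD, n = 4).

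Another member of the family, Rassf8, went up where Rassf5 was low. It rose in young Siglec F-low cells by 2.34 ± 0.25 (edgeR adjusted p = 3.06e-06), while old cells were at 0.60 ± 0.23 (edgeR adjusted p = 0.185), called at 0.72 with 22 libraries (edgeR adjusted p = 0.0237). Rassf8 rose with age too, by 1.87 ± 0.17 across the asbestos sorts (edgeR adjusted p = 1.95e-07) and by 1.85 ± 0.25 in naive cells (edgeR adjusted p = 5.75e-05). Its group means ran from 1.84 ± 0.80 CPM in young naive to 19.7 ± 3.89 CPM in old Siglec F-low cells. Stk4 was not called in either sort comparison with 24 libraries, at -0.18 ± 0.13 in young and -0.31 ± 0.13 in old cells (edgeR adjusted p = 0.453 and 0.232), and with 22 libraries it was called lower in young cells (-0.28 ± 0.09, edgeR adjusted p = 0.0327).

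Cpne5 (ENSMUSG00000024008) lies at chr17:29155556-29238167 on the minus strand of GRCm38, and 146 of its 13571 exon bases overlap a transcript on the opposite strand. Copines carry C2 domains, which bind membranes in the presence of calcium, and a domain like that of integrins. Of its 50-base words 1.55% occurred in some other gene. The 120 bases before its RefSeq start, at chr17:29237791-29237910 of GRCm38.p6 on the minus strand, are shown because the GC box lies here on the other strand, where it reads CCGCCC in capitals.
Cpne5: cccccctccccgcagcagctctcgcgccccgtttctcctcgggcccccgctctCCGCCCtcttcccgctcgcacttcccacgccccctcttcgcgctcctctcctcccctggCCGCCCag

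In young naive cells Cpne5 had 253, 229, 284 and 285 CPM, and in old naive cells 226, 208, 239 and 176 CPM. Asbestos Siglec F-high cells had 161, 194, 211 and 184 CPM in young and 176, 193, 257 and 168 CPM in old mice. Siglec F-low cells had 74.6, 67.1, 81.6 and 91.1 CPM in young and 97.7, 141, 95.2 and 62.1 CPM in old mice. Old Siglec F-low libraries spread more widely than young ones, with 1 library at 141 CPM. Siglec F-low libraries lay below all Siglec F-high ones. By mean the order was young naive (262.5 ± 27.1, SD, n = 4), old naive (212 ± 27.3), Siglec F-high after asbestos in old (198.5 ± 40.5) and in young mice (188 ± 20.9), old Siglec F-low (99.1 ± 32.5) and young Siglec F-low (78.6 ± 10.2). Neighbours overlapped except at the step between the sorts. The sort difference was -1.26 ± 0.19 on the log2 scale in young mice, the largest of the 4 genes there, and -0.99 ± 0.18 in old mice. With 22 libraries these were -1.20 and -0.86. The libraries that stood apart were the highest of their groups, at 211 CPM in young and 257 CPM in old mice. Without them the Siglec F-high means after asbestos were 180 ± 16.9 CPM in young and 178.9 ± 12.4 CPM in old mice (SD, n = 3), so their order turned.

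Cpne5 showed no called difference with age. Its naive groups overlapped only between 228.8 and 239.1 CPM. Old naive cells were at -0.31 ± 0.18 against young naive cells (edgeR adjusted p = 0.811), and old asbestos cells at 0.20 ± 0.13 against young ones across both sorts (edgeR adjusted p = 0.348). The copine list held 8 other genes, of which 4 were tested. Cpne2 rose in Siglec F-low cells at both ages, by 1.89 ± 0.48 in young (edgeR adjusted p = 0.0222) and by 2.13 ± 0.50 in old cells (edgeR adjusted p = 0.0137). Its levels were low, at 1.36 ± 0.99 and 1.92 ± 0.997 CPM in asbestos Siglec F-high cells and 5.27 ± 0.56 and 9.40 ± 3.80 CPM in Siglec F-low cells, young and old (SD, n = 4). Cpne8 was lower in young Siglec F-low cells by a smaller step (-0.40 ± 0.09, edgeR adjusted p = 0.0104), and in old cells the value was -0.22 ± 0.09 (edgeR adjusted p = 0.232). The list medians were 0.17 in young and -0.23 in old cells, and -0.18 and -0.04 with 22 libraries, where 5 genes were tested and Cpne8 was called lower at both ages.

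**Figure D3:**
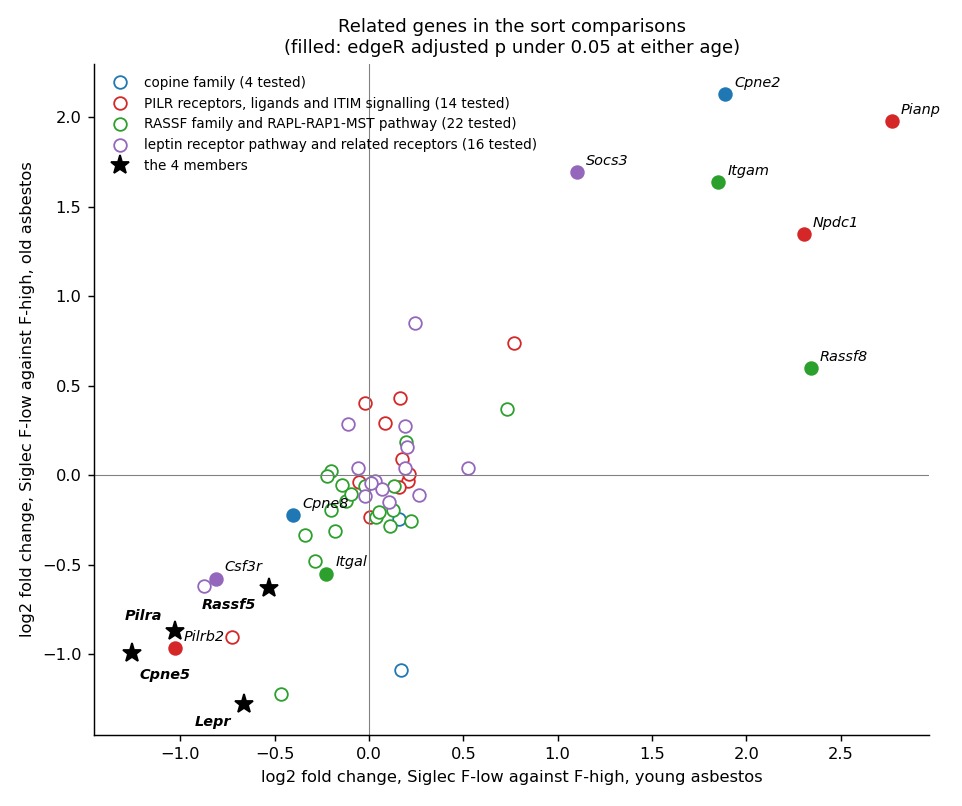
Log2 difference of Siglec F-low against Siglec F-high cells in young (horizontal axis) and old (vertical axis) asbestos mice for the tested genes of the 4 related lists (circles, filled where called by edgeR at either age) and for the 4 members (stars), which were chosen on these axes. Most related genes lie near 0, Pianp, Npdc1, Rassf8, Itgam, Cpne2 and Socs3 lie to the right, and Pilrb2 lies next to Pilra.

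Asbestos cells were also set against naive cells of the same age, as the mean of both asbestos sorts. In the fit this value is the difference of asbestos Siglec F-high from naive cells plus 0.5 times the sort difference that chose the genes, so part of each negative value came with the choice, and the test is no independent sign of an asbestos response. Pilra was at -0.82 ± 0.13 in young (edgeR adjusted p = 0.00023) and -0.93 ± 0.13 in old mice (edgeR adjusted p = 7.28e-05). The part from Siglec F-high cells alone was -0.31 ± 0.16 in young and -0.50 ± 0.16 in old mice, or -0.47 and -0.35 with 22 libraries. In old mice the Pilra values of Siglec F-high asbestos and naive cells did not overlap, and in young mice they overlapped only through the library at 238 CPM.

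Cpne5 was at -1.11 ± 0.15 in young (edgeR adjusted p = 3.53e-05) and -0.60 ± 0.15 in old mice (edgeR adjusted p = 0.0186), with parts of -0.48 ± 0.18 and -0.11 ± 0.18 from Siglec F-high cells, or -0.55 and -0.24 with 22 libraries. The call in old mice was lost when old naive replicate 1, 2 or 3 was left out (edgeR adjusted p = 0.069, 0.051 and 0.0928). Rassf5 was at -0.48 ± 0.08 in young (edgeR adjusted p = 0.000153) and -0.56 ± 0.08 in old mice (edgeR adjusted p = 3.67e-05), with parts of -0.22 ± 0.09 and -0.24 ± 0.09. Lepr was at -0.30 ± 0.16 in young (edgeR adjusted p = 0.262) and -0.33 ± 0.16 in old mice (edgeR adjusted p = 0.3). Its Siglec F-high part was not negative, at 0.03 ± 0.18 in young and 0.31 ± 0.18 in old mice, and the old value was 0.01 ± 0.12 with 22 libraries. With 22 libraries both Lepr values were called, at -0.28 (edgeR adjusted p = 0.036) and -0.48 (edgeR adjusted p = 0.00098). Over all genes 8.82% were called in young and 5.93% in old mice, 3.35% and 2% as lower, and with 22 libraries 25.4% and 22.1% were called. Marker genes moved here too. Among 8 B cell genes 5 were called lower in young and 2 in old mice, and 0 higher. With 22 libraries 7 were lower at each age. Among the 12 genes of monocyte-derived cells 6 were called higher at each age, and 1 lower in young mice. Resident genes, 14 in all, went both ways, with 5 called lower at each age, 3 higher in young and 2 higher in old mice. Their part in the asbestos differences of the 4 genes was not tested.

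Siglec F-low cells were also set directly against naive cells of the same age, as a description. Cpne5 was at -1.74, Pilra at -1.34, Rassf5 at -0.75 and Lepr at -0.63 on the log2 scale in young mice. In old mice the values were -1.10 for Cpne5, -1.37 for Pilra, -0.87 for Rassf5 and -0.97 for Lepr. Both these steps and the sort difference use the same Siglec F-low libraries.

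Whether the difference of asbestos from naive cells changed with age was tested as an interaction. Of the 13467 genes 0 (0%) were called by edgeR with 24 libraries, 530 had an unadjusted p under 0.05, DESeq2 called 22, and edgeR called 19 (0.139%) with 22 libraries. Cpne5 had the largest value of the 4 genes, at 0.51 ± 0.22 (edgeR adjusted p = 0.923). Rassf5 was at -0.07, Lepr at -0.03 and Pilra at -0.11. With 22 libraries Cpne5 was at 0.47, Rassf5 at -0.03, Lepr at -0.20 and Pilra, with its sign turned, at 0.05, and none was called (edgeR adjusted p from 0.454 to 0.965). The data thus do not show that the 2 ages differed in this step, and they do not show that they were alike.

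**Figure D4:**
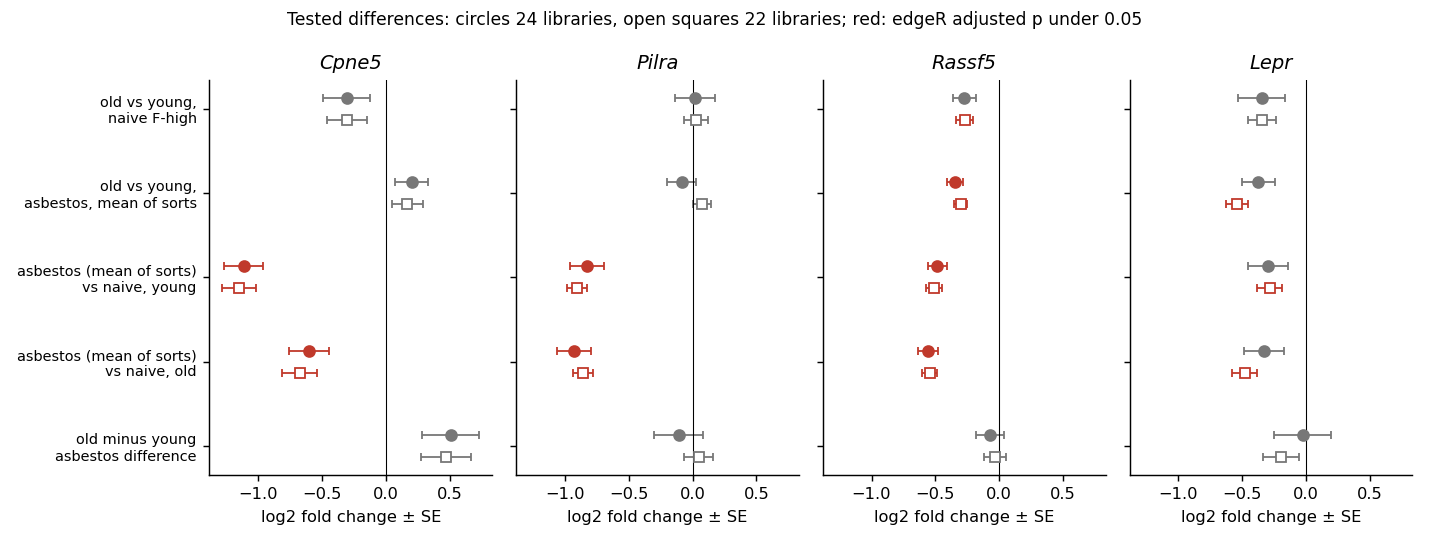
Log2 difference ± SE (horizontal axis) of each gene in the 5 tested comparisons (vertical axis), with circles for 24 libraries, open squares for 22, and red for an edgeR adjusted p under 0.05. Rassf5 is called lower with age across the asbestos sorts in both fits (-0.35 and -0.30), while Lepr is called there only in the fit of 22 libraries (-0.54). The comparisons of asbestos with naive cells hold part of the sort difference that chose the genes.

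The genes whose log2 CPM ran most like that of each member were ranked over 9357 genes, by the lower of the Pearson coefficients over 24 and over 22 libraries. The libraries share their groups and depths, so the coefficients are descriptions. Cpne5 was most like Akap5 (0.949 over 24 libraries), Ppp1r9a (0.946) and C5ar2 (0.942), a receptor for complement C5a. Pilra was most like Vasp (0.944), which encodes a regulator of actin filaments, Fabp1 (0.942), a fatty acid binding protein on the list of resident genes, and Epcam (0.941), an adhesion gene on the list of epithelial genes. Rassf5 was most like Pygl (0.947), which encodes glycogen phosphorylase, Matn2 (0.947) and Stk40 (0.936), and Lepr was most like Ankrd44 (0.915), Ncoa1 (0.905) and Crybg1 (0.887). Among the members the coefficients over 24 libraries ran from 0.596 for Pilra and Lepr to 0.879 for Pilra and Rassf5, and that of Pilra and Lepr was 0.743 over 22.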

How the data were processed

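Per the submitters' processing notes, the authors used bcl2fastq 2.19.1, FastQC, Trimmomatic 0.36, STAR 2.6.0 and HTSeq 0.11.2 with the mm10 build. The annotation release, the strand setting and the treatment of reads that match several genes are not given in the sources used here. The deposited values were whole, unscaled counts per Ensembl gene, in 24 columns matched to the samples by title. Depth was 3894699 to 18124526 counts per library.

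Genes were kept with filterByExpr (minimum count 10, minimum total 15), scaled by TMM and tested with the quasi-likelihood F test of edgeR 4.0.16 in R 4.3.3, with 1 term per group, Benjamini-Hochberg adjustment over all genes of a comparison and a threshold of 0.05. The SE is the log2 difference over the square root of F. The fit was tested on simulated counts in which randomly picked genes were changed by 0.5 or 1 on the log2 scale. They were picked from all genes kept, whatever their level, so the shares are not specific to the 4 genes. For age in naive cells it recovered 9% and 52% of them, and for age across the asbestos sorts 27% and 77%. For the sorts in young mice the shares were 11% and 54%, and for asbestos against naive cells in young mice 21% and 69%. Small differences that were not called are thus not shown to be absent. A second fit left out the 2 libraries that stood apart (22 libraries, 13629 genes). Log2 CPM for likeness used a prior count of 2 and a mean of at least 5 CPM.

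The members and the gene lists were chosen with earlier results of these data known. Named were the members, Siglecf, genes called in the sort comparisons (at most 4 per list), near copies or partners of a member, and the 3 genes most like each member. Genes named beyond that (Jak2, Stat3 and single markers) were chosen after their values were seen, and 1 marker gene is not reported here. Cd99 and Lilrb4a matched no symbol in the table. Alternatives were DESeq2 1.42.0, its type of size factors in edgeR, no filter, a replicate block, 22 libraries and leaving out each library in turn. The labels do not say that a replicate number marks 1 animal, and no pair of groups had all 4 same-number correlations above 0.1. Gene positions are from GENCODE on GRCm38 (mm10), and promoter windows from RefSeq on GRCm38.p6, which held 5 windows for the 4 members.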

Additional observations from a re-analysis of the deposited data

Results flagged for a closer look

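In all, 3 values stood far from the other 3 libraries of their group. Pilra had 237.8 CPM in replicate 3 of young asbestos Siglec F-high cells, against 156.5 to 164.8 CPM in the others. Lepr had 286.7 CPM in replicate 3 of old asbestos Siglec F-high cells, against 136.6 to 148.5 CPM. Both are the libraries with few genes or few counts on most genes. Lepr also had 126.9 CPM in replicate 4 of young asbestos Siglec F-low cells, against 112.5 to 114.2 CPM, and that library did not stand apart in depth. These were 3 of 24 sets of 1 gene in 1 group that were examined, and chance alone gives about 1 in 20.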

How the results depend on the processing

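With 22 libraries and with DESeq2, the genes called rose from 273 to 1094 and 474 for age in naive cells, from 973 to 2199 and 1546 for age in asbestos cells, from 1188 to 3463 and 1847 for asbestos against naive cells in young mice and from 799 to 3007 and 1243 in old mice. For Siglec F-low against Siglec F-high cells they rose from 672 to 1638 and 1133 in young and from 579 to 1578 and 924 in old mice, and for the interaction from 0 to 19 and 22. With a replicate block 1 gene was called in the interaction, and the block changed no call of a member. Leaving out single libraries gave 179 to 726 genes for age in naive cells, 697 to 1772 for age in asbestos cells, 681 to 2546 and 527 to 2163 for asbestos against naive cells in young and old mice, 427 to 1158 and 269 to 1543 for the sorts in young and old mice, and 0 to 14 for the interaction. Leaving out replicate 3 of the young Siglec F-high cells after asbestos moved every count but that of the sorts in young mice by over 1.5 times. The others that did so were replicates 3 and 4 of young naive cells (age in naive cells, asbestos in young mice), replicate 3 of old naive cells (asbestos in old mice), replicates 3 and 4 of old Siglec F-low cells (sorts in old mice), replicate 1 of young Siglec F-high cells after asbestos and replicates 1, 2 and 3 of young Siglec F-low cells (sorts in young mice). The interaction also left 0 without replicate 1 of young naive, 3 of old naive or 2 of old Siglec F-low cells.

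Of the member values, Lepr was called with 22 libraries for age in asbestos cells (-0.5384; -0.5166 to -0.312 without single libraries) and against naive cells in young (-0.283) and old mice (-0.4785; -0.4785 to -0.2688). Rassf5 was called for age in naive cells with DESeq2 (-0.2705) and with 22 libraries (-0.2694), and lay between -0.3109 and -0.2306 without single libraries. Cpne5 against naive cells in old mice lay between -0.7107 and -0.5155. These Lepr and Cpne5 values against naive cells hold part of the sort difference that chose the genes. Values near 0 changed sign: Pilra for age in asbestos cells (0.0746 with 22 libraries; -0.1283 to 0.0014) and in the interaction (0.048 with 22 libraries), Pilra for age in naive cells (-0.0191 to 0.1137) and Lepr in the interaction (-0.1737 to 0.0382). The cause of these changes was not tested. Of 580 member values under alternatives, 555 kept their direction and side of the threshold, 3 lost a call, 9 gained one and 13 changed sign. The depth of 3894699 counts in 1 library limits the precision of its group.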
